A study of Mus musculus with 14 samples.

Results

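Transcripts of mouse liver were compared with those of mouse stomach in 4 libraries of a series of 14, chosen by their titles. The liver group held a female library, labelled right lobe, and a male library, labelled left lobe. The stomach group held 1 female and 1 male library, with no region of the organ given. The animals were C57BL6 mice of both sexes, and no age, treatment or number of animals behind a library is given in the sources used here. Each library differs from its partner in sex. The liver libraries also differ in lobe by their titles, but the codes of both end in the same letters, so whether the lobes differed is not settled, and a lobe difference cannot be told apart from one of sex. The other 10 libraries came from 5 other tissues.

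Each transcript was counted by a signature tag of 20 bases that starts at a GATC site near its 3′ end. Tag counts were summed per gene, and 18140 genes had counts in the 4 libraries, of 22221 in the series. Values are CPM, tag counts per 1000000 gene counts of a library, and each pair of values gives the female library and then the male library of a tissue. Of these genes, 9631 had enough counts in at least 2 of the 4 libraries to be tested with edgeR's quasi-likelihood test. A gene was called where the Benjamini-Hochberg adjusted p was under 0.05 and the change at least 2-fold.

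Liver and stomach are both glandular organs that arise from the foregut and export much of the protein they make. Hepatocytes release plasma proteins into the blood and handle amino acids, glucose, lipids, bile acids and foreign compounds. The stomach releases acid, pepsinogens and mucus into its lumen from parietal, chief and surface mucous cells, and rests on layers of smooth muscle. The mouse stomach also has a forestomach, lined by a keratinised squamous epithelium.

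The tags below carry most of the counts, summed over the 4 libraries, of Alb, which encodes serum albumin, of Muc5ac, which encodes the mucin of the gastric surface, and of the genes with the highest CPM on each side. Capitals mark the GATC site at which DpnII cuts. All were taken from the files, which attach each to 1 gene.
Alb: GATCcctggtggaaaggcgg
Mup1: GATCtgcattccatcctgtc
Mup20: GATCtgctttccatcgtgtc
Serpina1a: GATCccacacataaatgacc
Muc5ac: GATCacccaagggtcccatg
Pgc: GATCctcggggatgtcttcc
Clps: GATCacgcagttagctgggt
cluster titled caspase 6: GATCtggctggtgacacagt
Mup20 is shown because its tag is close to that of Mup1. Counted from 1 at the G of GATC, the Mup1 tag differs from the Mup20 tag by A8T and C16G.

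Both tissues carried the markers of their labels. Alb stood at 46078 and 30610.5 CPM in liver, against 776 and 117 CPM in stomach (log2 fold change 6.53 ± 1.19, adjusted p = 0.00457). Muc5ac had 0 counts in both liver libraries, against 3012 and 3493 CPM in stomach (at least 2715-fold lower, adjusted p = 0.000832). The groups did not overlap for either gene. Of the 9631 genes tested, 2359 had both liver values above both stomach values and 3240 the reverse, so lack of overlap was common. In stomach the printed Alb tag held only 9 and 77 counts, and the other tags of the Alb cluster held 1782 and 147, against 5379 and 4304 in liver. From the printed tag alone the log2 fold change of Alb was 10.79 (adjusted p = 0.00192). Here and below, ± approximates a standard error as the absolute log2 fold change over the square root of the test's F statistic. Each tissue has n = 2 libraries. Where both libraries of a tissue have 0 counts, the fold is a lower bound against 3 counts per library.

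Library totals ran from 2194028 to 3794733 counts, of which 73.5% to 87.6% were assigned to genes. Across 18140 genes, Spearman's rho was 0.938 between the liver libraries, 0.840 between the stomach libraries and 0.639 to 0.657 between tissues, as a description. The female stomach library stood apart in having 18.6% of its counts on tags with no assignment, against 4.18% in the male stomach library. The stomach libraries also differed with the base composition of the tags. Among genes whose most abundant tag had at most 1 G or C in the 16 bases after GATC, the median log2 ratio of the female over the male stomach library was 2.52, and among those with at least 13 it was -1.54. In the liver libraries the same medians were 0.26 and 0.19. The medians of the fitted log2 fold change of liver over stomach in these 2 classes were -0.89 and -0.09.

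**Figure D1:**
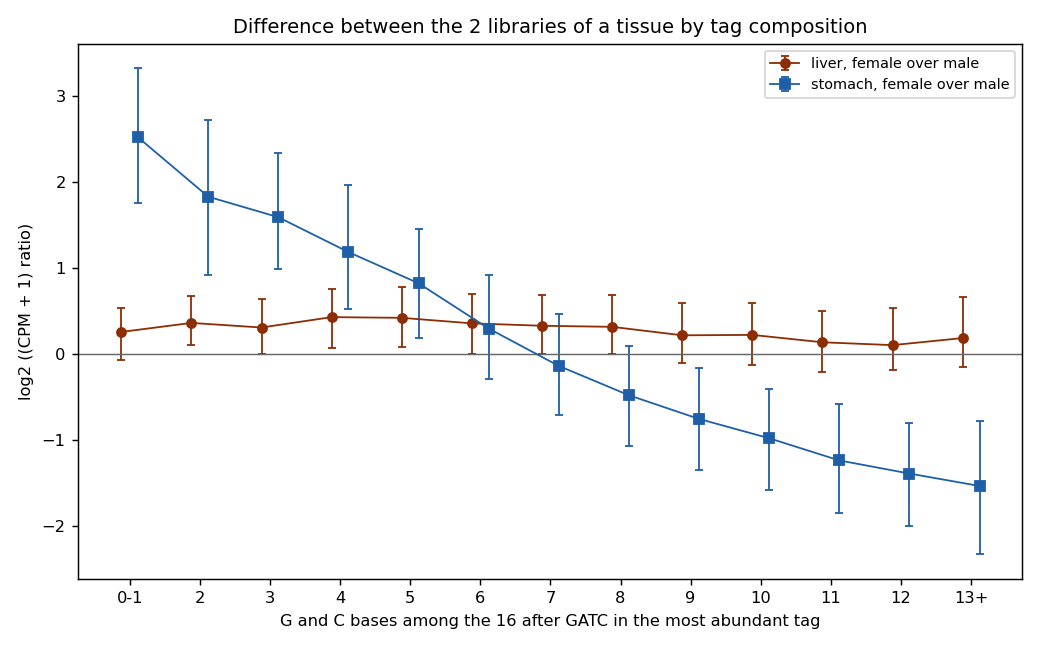
Median log2 ratio of the female over the male library (CPM + 1) of liver and of stomach, by the number of G and C bases in each gene's main tag, over 9631 genes. Bars span the quartiles over genes. The stomach medians fall from 2.52 to -1.54 along the axis, while the liver medians stay between 0.10 and 0.43.

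In liver, 1002 genes (10.4% of 9631) were higher than in stomach and 1415 (14.7%) were lower. The median log2 fold change over all genes tested was -0.10. The fit called 634 higher and 698 lower when the female liver library was left out, and 637 and 678 when the male liver library was. It called 2290 higher and 2496 lower when the female stomach library was left out, and 2006 and 2437 when the male stomach library was. The count filter was applied anew in each of these fits, so the genes tested changed too, to 11146, 11040, 10444 and 10547 in this order. Counts of called list members without a library, given below, stand beside these totals and not beside those of the 4 libraries. Of the genes called, 132 of the higher ones had 0 counts in both stomach libraries and 383 of the lower ones had 0 counts in both liver libraries. In whole tissue, fewer cells of a type and less RNA per cell cannot be told apart. A tag count also depends on the GATC sites of a transcript, so levels were compared between tissues and not between genes. Arg1, the last enzyme of the urea cycle, was listed at only 11.9 and 9.07 CPM in liver, and the reason was not tested. Besides Alb, the main tag alone moved the fold of several named genes by over 1.5 times. The log2 fold change was then 9.48 for Apoc3, -4.48 for Adh7 and -8.21 for Amy2a, while the main tag of Nr1i3 had 0 counts in stomach, that of Tff1 had 0 in liver, and those of Scd2 and Sprr2a1 had 1 count each in liver.

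Genes of secreted plasma proteins were high in liver. Of 27 listed plasma proteins, 25 had tags and passed the count filter, and 25 were called higher in liver. Their median log2 fold change was 9.25, or 8.67 with the genes that had 0 counts in stomach placed at their bounds, against -0.10 over all genes. A listed gene silent in stomach could pass the filter only through liver, so such counts and medians, here and below, describe the lists and test nothing. Over all genes tested, 10.4% were called higher and 14.7% lower in liver, and the list counts stand beside these shares. Serpina1a, a protease inhibitor of the antitrypsin family, stood at 26876 and 40435 CPM in liver, against 15.2 and 34.3 CPM in stomach (log2 fold change 10.68 ± 1.12, adjusted p = 0.000832). Trf, the iron carrier transferrin, stood at 6374 and 5584 CPM in liver, against 13.9 and 26.5 CPM in stomach (log2 fold change 8.42 ± 0.87, adjusted p = 0.000832). Ttr, which carries thyroid hormone and retinol-binding protein, stood at 9171 and 8011 CPM in liver, against 132 and 178 CPM in stomach (log2 fold change 5.99 ± 0.76, adjusted p = 0.00109). These genes were high in both liver libraries and low in both stomach libraries.

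The apolipoproteins, which coat lipoprotein particles, spread widely. Apoe stood at 14227 and 12433 CPM in liver, against 80.6 and 280.4 CPM in stomach (log2 fold change 6.44 ± 0.93, adjusted p = 0.00181). Apoc3 stood at 6016 and 2928 CPM in liver, against 9.97 and 14 CPM in stomach (log2 fold change 8.68 ± 0.87, adjusted p = 0.000832). Apoa1, the main protein of high-density lipoprotein, had the smallest fold of the plasma proteins, with 12977 and 19248 CPM in liver, against 1825 and 1644 CPM in stomach (log2 fold change 3.45 ± 0.75, adjusted p = 0.00939, but 0.0596 without the male liver library). Apoa1 and the Alb cluster, whose stomach counts lay mostly on tags other than the printed one, together made up most of the plasma protein counts in stomach, where the 25 genes summed to 2719 and 1947 CPM. In liver the sums were 140027 and 128154 CPM.

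Fgg, the gamma chain of fibrinogen, stood at 2399.7 and 1742 CPM in liver, against 1.30 and 2.08 CPM in stomach (log2 fold change 10.40 ± 0.89, adjusted p = 0.000832), and Fga, the alpha chain, at 2341 and 1740.5 CPM in liver, against 0.867 and 2.60 CPM in stomach (log2 fold change 10.38 ± 0.95, adjusted p = 0.000832). Of 25 coagulation and complement genes, all 25 were tested and called higher in liver, with a median of 8.37, or 7.04 at the bounds. F2, which encodes prothrombin, stood at 2481 and 1497 CPM in liver, against 2.60 and 1.56 CPM in stomach (log2 fold change 9.99 ± 0.90, adjusted p = 0.000832). F12, the contact-phase factor, had 205 and 173 CPM in liver, against 0 counts in both stomach libraries (at least 132-fold higher, adjusted p = 0.000832), and C8a, a chain of the membrane attack complex, had 79.4 and 338 CPM in liver, against 0 counts in both stomach libraries (at least 146-fold higher, adjusted p = 0.00199). C3, the central complement component, was also counted in stomach, with 2179 and 1311 CPM in liver, against 90.1 and 38.5 CPM in stomach (log2 fold change 4.88 ± 0.78, adjusted p = 0.00269). Cfi, a complement regulator, had the smallest fold of the list, with 575 and 412 CPM in liver, against 58.5 and 30.2 CPM in stomach (log2 fold change 3.62 ± 0.68, adjusted p = 0.00516).

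The major urinary proteins carry pheromones in mouse urine and are made in liver. Some of the genes are near-identical copies of one another, so a tag may stand for more than 1 of them. How the authors placed shared tags is not given in the sources used here. The Mup1 tag differs from the main tag of Mup3 at 8 positions and from that of Mup5 at 16. Of 7 listed, 5 had tags, and all 5 were called higher in liver. Mup1 stood at 51202 and 192881 CPM in liver, against 90.6 and 203 CPM in stomach (log2 fold change 10.04 ± 1.36, adjusted p = 0.00133). Mup20 stood at 387 and 16898 CPM in liver, against 0.867 and 33.3 CPM in stomach (log2 fold change 9.43 ± 2.30, adjusted p = 0.0165). Mup3 stood at 5656 and 12323 CPM in liver, against 5.20 and 20.8 CPM in stomach (log2 fold change 9.75 ± 1.20, adjusted p = 0.001). The male liver library was above the female one for each of these 3, and for Mup20 the 2 liver libraries differed more than for any other of the 12 leading liver genes. The male stomach library was likewise above the female one for these 3.

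**Figure D2:**
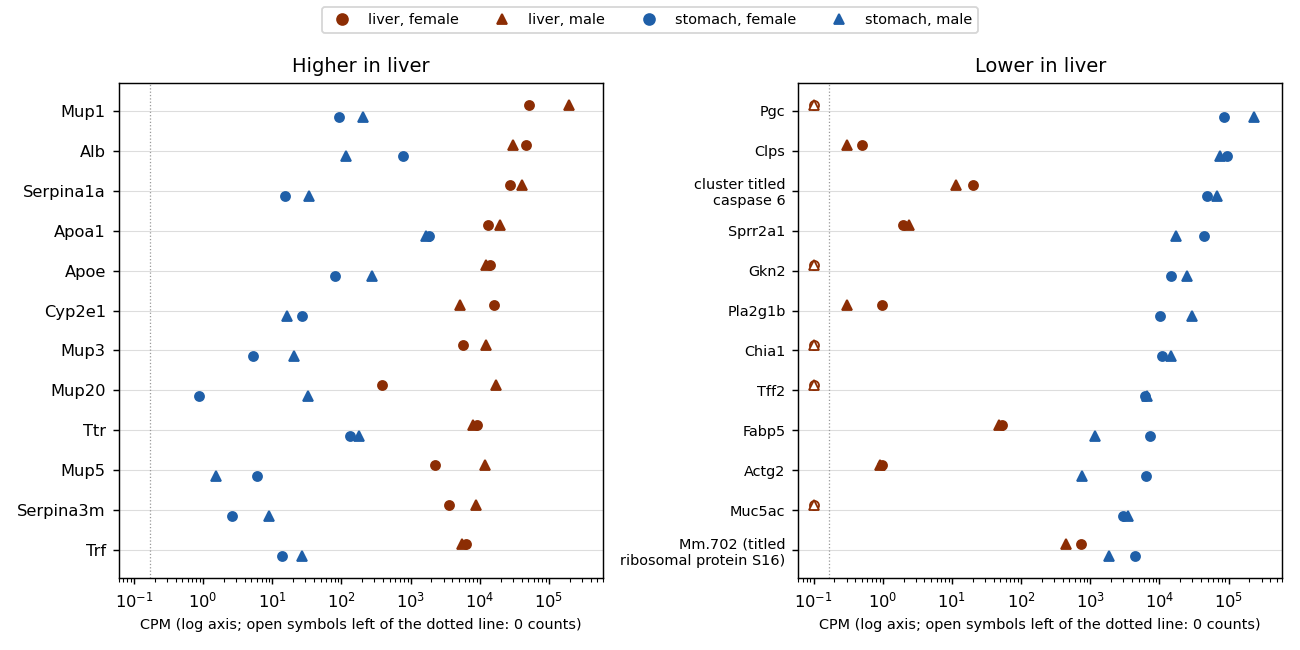
CPM on a log axis in each library for the 12 called genes of highest mean CPM per direction, those higher in liver in the left panel and those lower in liver in the right panel. Circles are female and triangles male libraries, liver is brown and stomach blue, and open symbols have 0 counts. The genes were chosen to have no overlap between the groups, and Pgc, Gkn2, Chia1, Tff2 and Muc5ac have 0 counts in both liver libraries.

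Enzymes of nitrogen and amino acid metabolism followed the same direction. All 7 urea cycle genes were called higher in liver, with a median of 7.71, or 5.42 at the bounds. Cps1, which makes carbamoyl phosphate in the first step of the cycle, stood at 2672 and 1331 CPM in liver, against 0 and 2.60 CPM in stomach (log2 fold change 10.77 ± 1.30, adjusted p = 0.000978). Ass1, which joins citrulline and aspartate, stood at 1533 and 1395 CPM in liver, against 5.63 and 12.5 CPM in stomach (log2 fold change 7.55 ± 0.82, adjusted p = 0.000832). Of 24 genes of amino acid breakdown, 23 were called higher and the other, Got1, was not called. Tdo2, which opens the ring of tryptophan, stood at 2843 and 2299.9 CPM in liver, against 0.433 and 0 CPM in stomach, a single count in stomach, for a ratio of pooled CPM of 10599 (95% interval 1902 to 418652) from counting error alone. Tat, which degrades tyrosine, stood at 2589 and 3687 CPM in liver, against 3.03 and 1.56 CPM in stomach (log2 fold change 10.58 ± 1.0, adjusted p = 0.000832). Sds, serine dehydratase, had 379 and 557 CPM in liver, against 0 counts in both stomach libraries (at least 327-fold higher, adjusted p = 0.000832). Got1, a transaminase used in many tissues, stood at 263 and 371 CPM in liver, against 163 and 35.4 CPM in stomach (log2 fold change 1.86 ± 0.83, adjusted p = 0.153, but 1.71e-05 without the female stomach library).

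Genes of glucose release and storage were higher in liver in 10 of 12 tested, of 13 listed, with a median of 6.63, or 5.80 at the bounds. Pck1, the cytosolic enzyme that commits oxaloacetate to gluconeogenesis, stood at 1838 and 2836 CPM in liver, against 5.20 and 16.6 CPM in stomach (log2 fold change 8.02 ± 0.97, adjusted p = 0.000978). G6pc, the phosphatase that frees glucose, stood at 72.4 and 108 CPM in liver, against 0 and 0.52 CPM in stomach (log2 fold change 8.50 ± 1.07, adjusted p = 0.00106). Pcx, pyruvate carboxylase, was not called, with 86.3 and 60.2 CPM in liver, against 5.63 and 58.8 CPM in stomach (log2 fold change 1.42 ± 0.91, adjusted p = 0.33, but 0.000131 without the male stomach library).

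Of 15 bile acid genes, 14 were called higher in liver, with a median of 8.04, or 6.53 at the bounds. Slc10a1, the uptake carrier for conjugated bile acids, stood at 962 and 286 CPM in liver, against 0 and 0.52 CPM in stomach, and Abcb11, the canalicular export pump, stood at 311 and 208 CPM in liver, against 0.867 and 0.52 CPM in stomach (log2 fold change 8.57 ± 0.85, adjusted p = 0.000832). Slco1b2, an organic anion carrier, had 1195 and 356 CPM in liver, against 0 counts in both stomach libraries (at least 542-fold higher, adjusted p = 0.000832). Cyp7a1, the rate-limiting enzyme of bile acid synthesis, was low in count, with 16.9 and 9.98 CPM in liver, against 0 counts in both stomach libraries (at least 9.39-fold higher, adjusted p = 0.00287). Nr0b2, a repressor in the bile acid feedback loop, was not called, with 31.3 and 32.7 CPM in liver, against 6.50 and 14.6 CPM in stomach (log2 fold change 1.84 ± 0.63, adjusted p = 0.0692, but 0.0132 without the female stomach library and 0.00247 without the male stomach library).

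Among the cytochromes P450, 22 of 28 listed were tested, of which 19 were called higher and 2 lower in liver. The median was 9.75, or 8.92 at the bounds. Cyp2e1, which oxidises ethanol and small solvents, stood at 15789.7 and 5102 CPM in liver, against 26.4 and 16.1 CPM in stomach (log2 fold change 9.02 ± 1.01, adjusted p = 0.000851). Cyp3a11, a broad drug-metabolising enzyme, stood at 4247 and 3835 CPM in liver, against 2.60 and 1.04 CPM in stomach (log2 fold change 11.22 ± 1.01, adjusted p = 0.000832). Cyp4a14, a fatty acid hydroxylase, had 1518 and 504 CPM in liver, against 0 counts in both stomach libraries (at least 707-fold higher, adjusted p = 0.000832). The exceptions were Cyp2s1, with 0 and 0.302 CPM in liver, against 111 and 254 CPM in stomach, and Cyp2c65, with 0 counts in both liver libraries, against 157 and 67.6 CPM in stomach (at least 93.9-fold lower, adjusted p = 0.00123). For Cyp2s1 the ratio of pooled CPM, stomach over liver, was 936 (95% interval 168 to 37026) by counting error alone. Members of 1 P450 subfamily thus differed in direction, since Cyp2c29 stood at 2103 and 1462 CPM in liver, against 0.433 and 1.56 CPM in stomach (log2 fold change 10.95 ± 0.98, adjusted p = 0.000832).

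Conjugating enzymes and carriers were also mixed. Of 24 tested, 18 were called higher and 1 lower (79.2% called, against 25.1% of all genes tested). Ugt2b36, which attaches glucuronic acid, had 696 and 599 CPM in liver, against 0 counts in both stomach libraries (at least 453-fold higher, adjusted p = 0.000832). Gsta3, a glutathione transferase, stood at 2619.5 and 1971 CPM in liver, against 90.6 and 54.6 CPM in stomach (log2 fold change 5.14 ± 0.73, adjusted p = 0.00165). Its relative Gsta4, which detoxifies lipid aldehydes, went the other way, with 87.8 and 108 CPM in liver, against 1047 and 2544 CPM in stomach (log2 fold change -3.94 ± 0.73, adjusted p = 0.00495, but 0.125 without the female liver library). Sult1d1, a sulfotransferase, was not called, with 356 and 158 CPM in liver, against 399 and 84.3 CPM in stomach (log2 fold change 0.17 ± 0.80, adjusted p = 0.924, but log2 fold change -0.19 with adjusted p = 0.986 without the female liver library, adjusted p = 0.00586 without the female stomach library and log2 fold change -0.54 with adjusted p = 0.365 without the male stomach library). The number of conjugation genes called lower was 0 without the female liver library, 2 without the female stomach library and 2 without the male stomach library.

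Genes of lipid metabolism were called in part. Of 20 tested genes of fatty acid oxidation and PPAR targets, 11 were called higher (55%, against 10.4% of all genes tested), with a median of 2.34. The number of fatty acid oxidation genes called higher was 7 without the female liver library, 6 without the male liver library and 17 without the male stomach library. Hadha, a subunit of the trifunctional protein of beta-oxidation, was not called, with 197 and 97.4 CPM in liver, against 96.6 and 82.2 CPM in stomach (log2 fold change 0.85 ± 0.58, adjusted p = 0.37). Of 21 tested genes of lipogenesis and sterol synthesis, 7 were called higher and 1 lower, with a median of 1.42. The share called was 38.1%, against 25.1% of all genes tested. Scd1, the stearoyl desaturase of liver, stood at 1873 and 849 CPM in liver, against 400.0 and 195 CPM in stomach (log2 fold change 2.30 ± 0.69, adjusted p = 0.0415, but 0.402 without the female liver library and 0.172 without the male liver library). Its paralog Scd2 was lower in liver, with 7.44 and 3.93 CPM in liver, against 52.4 and 32.8 CPM in stomach (log2 fold change -2.78 ± 0.66, adjusted p = 0.0142, but 0.202 without the female liver library and 0.318 without the male liver library). Fasn, the fatty acid synthase, was not called, with 324 and 90.7 CPM in liver, against 221 and 136 CPM in stomach (log2 fold change 0.29 ± 0.68, adjusted p = 0.83, but log2 fold change -0.51 with adjusted p = 0.95 without the female liver library and log2 fold change -0.03 with adjusted p = 0.968 without the male stomach library), and the female library was the higher one in both tissues. The number of lipogenesis and sterol genes called higher was 3 without the female liver library, 3 without the male liver library, 13 without the female stomach library and 14 without the male stomach library. The number of lipogenesis and sterol genes called lower was 0 without the female liver library and 0 without the male liver library.

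Transcription factors known from hepatocytes were called higher in liver in 9 of 16 tested (62.5% called either way, against 25.1% of all genes tested). Nr1i3, the xenobiotic receptor CAR, stood at 428 and 134 CPM in liver, against 3.03 and 1.56 CPM in stomach (log2 fold change 6.97 ± 0.90, adjusted p = 0.00113), and Cebpa, a regulator of hepatocyte genes, at 179 and 112 CPM in liver, against 6.07 and 38 CPM in stomach (log2 fold change 2.94 ± 0.85, adjusted p = 0.0341, but 0.123 without the female liver library and 0.0968 without the male liver library). Hnf4a, which is also active in other endodermal epithelia, was not called, with 58.6 and 64.1 CPM in liver, against 5.63 and 23.9 CPM in stomach (log2 fold change 2.31 ± 0.76, adjusted p = 0.0571, but 0.00365 without the female stomach library and 0.000291 without the male stomach library). Foxa1, a pioneer factor of endoderm, was lower in liver, with 10.4 and 4.54 CPM in liver, against 147 and 39.5 CPM in stomach (log2 fold change -3.56 ± 0.85, adjusted p = 0.0152, but 0.1 without the female liver library and 0.201 without the male liver library). Its paralogs Foxa2 and Foxa3 were not called. Foxa2 stood at 37.2 and 12.4 CPM in liver, against 52.9 and 8.84 CPM in stomach (log2 fold change -0.27 ± 0.88, adjusted p = 0.882, but log2 fold change 0.20 with adjusted p = 0.985 without the male liver library and log2 fold change 1.64 with adjusted p = 0.0168 without the female stomach library). The number of hepatocyte factor genes called higher was 5 without the female liver library and 5 without the male liver library. The number of hepatocyte factor genes called lower was 0 without the female liver library, 0 without the male liver library, 2 without the female stomach library and 2 without the male stomach library.

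Markers of other liver cells were counted too. Of 15 listed markers of Kupffer cells and sinusoidal endothelium, 11 were tested and 9 called higher in liver. Clec4f, a lectin of mouse Kupffer cells, had 162 and 83.2 CPM in liver, against 0 counts in both stomach libraries (at least 85.8-fold higher, adjusted p = 0.000911). Stab2, a scavenger receptor of sinusoidal endothelium, stood at 34.2 and 29.3 CPM in liver, against 0.867 and 0.52 CPM in stomach, with 3 counts in stomach and a ratio of 44 (95% interval 14.8 to 215). Markers of stellate and biliary cells were divided, with 4 of 10 tested called higher, namely Colec11, Reln, Lrat and Onecut1, and 4 lower, namely Krt19, Krt7, Des and Epcam. The number of stellate and biliary genes called lower was 7 without the male stomach library. Lrat, the retinyl ester synthase of stellate cells, had 18.9 and 7.26 CPM in liver, against 0 counts in both stomach libraries (at least 9.13-fold higher, adjusted p = 0.00394). The biliary keratins Krt19 and Krt7 are shared with other simple epithelia, and Krt19 stood at 0.992 and 1.51 CPM in liver, against 2414 and 3134 CPM in stomach (log2 fold change -10.78 ± 0.94, adjusted p = 0.000832).

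Tfr2, a hepatic sensor of transferrin iron, stood at 283 and 226 CPM in liver, against 1.30 and 0.52 CPM in stomach (log2 fold change 8.17 ± 0.86, adjusted p = 0.000832). It was one of 6 genes called higher among 11 tested of iron and haem handling (54.5%, against 10.4% of all genes tested). Fth1, the heavy chain of ferritin, was not called, with 2194 and 2007 CPM in liver, against 599 and 1303 CPM in stomach (log2 fold change 1.37 ± 0.64, adjusted p = 0.173, but 0.00735 without the male stomach library). Hamp2, a hepcidin gene, was not called either, with 906 and 9.68 CPM in liver, against 29.9 and 93.6 CPM in stomach (log2 fold change 2.94 ± 1.47, adjusted p = 0.203, but log2 fold change -2.13 with adjusted p = 0.443 without the female liver library and adjusted p = 0.0233 without the male liver library). Its female and male liver values lay on opposite sides of both stomach values. The number of iron and haem genes called higher was 3 without the female liver library. The number of iron and haem genes called lower was 2 without the female stomach library.

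On the stomach side, the leading genes included ones known from the gastric glands, the surface, the squamous epithelium and smooth muscle. Among them were also 2 pancreatic names and the clusters titled caspase 6 and ribosomal protein S16. Pgc, the precursor of the protease pepsin C made by chief cells, had 0 counts in both liver libraries, against 84495 and 234060.0 CPM in stomach (at least 132965-fold lower, adjusted p = 0.000832). Chia1, the acidic chitinase of mouse chief cells, had 0 counts in both liver libraries, against 11050.2 and 14469 CPM in stomach (at least 10652-fold lower, adjusted p = 0.000832). Cblif, which encodes gastric intrinsic factor, had 0 counts in both liver libraries, against 931 and 937 CPM in stomach (at least 779.6-fold lower, adjusted p = 0.000832). Of 9 listed chief cell genes, 7 had tags and were tested, and 6 of them were called lower in liver. The other, Nxpe2, was higher in liver, with 23.8 and 12.4 CPM in liver, against 0.433 and 0.52 CPM in stomach, which is 1 count in each stomach library.

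All 18 tested parietal cell genes, of 21 listed, were called lower in liver, with a median of -8.28, or -6.57 with genes absent from liver at their bounds. Atp4b, the beta subunit of the proton pump, had 0 counts in both liver libraries, against 2236 and 2564 CPM in stomach (at least 2003-fold lower, adjusted p = 0.000832). Atp4a, its catalytic subunit, stood at 0 and 1.21 CPM in liver, against 1168 and 3238 CPM in stomach (log2 fold change -11.22 ± 1.30, adjusted p = 0.000892). Slc26a9, an anion channel of the gastric epithelium, had 0 counts in both liver libraries, against 21.2 and 26 CPM in stomach (at least 19.7-fold lower, adjusted p = 0.00188). Ckb, the brain-type creatine kinase, which parietal cells also use, stood at 4.96 and 4.84 CPM in liver, against 275 and 276 CPM in stomach (log2 fold change -5.59 ± 0.69, adjusted p = 0.00101). Slc9a4, a sodium-proton exchanger, had 0 counts in both liver libraries, against 578 and 41.1 CPM in stomach (at least 258-fold lower, adjusted p = 0.0046), and its stomach libraries were far apart.

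Surface mucous and mucous neck cells contributed 19 tested genes of 24 listed, all called lower in liver. Their median was -10.97, or -7.57 at the bounds. Gkn2, a gastrokine of surface mucous cells, had 0 counts in both liver libraries, against 14897 and 25326 CPM in stomach (at least 16789-fold lower, adjusted p = 0.000832). Tff2, the trefoil peptide of mucous neck cells, had 0 counts in both liver libraries, against 6149 and 6565 CPM in stomach (at least 5307-fold lower, adjusted p = 0.000832). Agr2, a disulfide isomerase of mucin-making cells, had 0 counts in both liver libraries, against 222 and 716 CPM in stomach (at least 392-fold lower, adjusted p = 0.000926). Tff1, the trefoil peptide of the surface, stood at 4.47 and 1.81 CPM in liver, against 752 and 542 CPM in stomach (log2 fold change -7.57 ± 0.82, adjusted p = 0.000832).

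Endocrine genes were lower in liver in 9 of 11 tested, of 23 listed. Ghrl, which encodes the appetite hormone ghrelin, stood at 0 and 0.302 CPM in liver, against 2015 and 1969 CPM in stomach and had 1 count in liver, for a ratio of pooled CPM, stomach over liver, of 10615 (95% interval 1905 to 419314). Sst, which encodes somatostatin, had 0 counts in both liver libraries, against 169.9 and 230.4 CPM in stomach (at least 167-fold lower, adjusted p = 0.000832). Chga, a granule protein of endocrine cells, had 0 counts in both liver libraries, against 56.8 and 134 CPM in stomach (at least 79.5-fold lower, adjusted p = 0.00118). Hdc, which makes histamine, was not called, with 1.98 and 2.42 CPM in liver, against 6.07 and 7.80 CPM in stomach (log2 fold change -1.39 ± 0.64, adjusted p = 0.165). Ddc, the aromatic amino acid decarboxylase, was higher in liver, with 20.8 and 42 CPM in liver, against 1.73 and 0.52 CPM in stomach (log2 fold change 4.94 ± 0.90, adjusted p = 0.00462). The number of endocrine genes called lower was 5 without the female liver library and 5 without the male liver library.

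Genes of stratified squamous epithelium were counted in stomach. Of 34 listed, 26 were tested and 25 called lower in liver, with a median of -8.80, or -7.07 at the bounds. Krt10, a keratin of suprabasal cells, stood at 7.44 and 4.84 CPM in liver, against 2201 and 1268 CPM in stomach (log2 fold change -7.99 ± 0.84, adjusted p = 0.000832). Krt5, its basal counterpart, stood at 0.992 and 0.302 CPM in liver, against 102 and 197 CPM in stomach (log2 fold change -7.66 ± 0.89, adjusted p = 0.000887). Lor, the loricrin of the cornified envelope, stood at 0 and 0.907 CPM in liver, against 808 and 1888 CPM in stomach (log2 fold change -10.89 ± 1.21, adjusted p = 0.000832). Sprr3, another envelope protein, had 0 counts in both liver libraries, against 249 and 429 CPM in stomach (at least 283-fold lower, adjusted p = 0.000832). Sprr2a1, of the same small proline-rich family, stood at 1.98 and 2.42 CPM in liver, against 44262 and 17457 CPM in stomach (log2 fold change -13.54 ± 1.27, adjusted p = 0.000832). The labels do not say whether forestomach was part of the tissue, and the basal regulator Trp63 had 0 counts in both liver libraries, against 5.63 and 11.4 CPM in stomach (at least 7.13-fold lower, adjusted p = 0.00535, but 0.06 without the female liver library and 0.0755 without the male liver library).

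Smooth muscle and connective tissue genes also marked the stomach. Of 20 tested smooth muscle genes, of 22 listed, 17 were called lower in liver, with a median of -5.76, or -5.47 at the bounds. Acta2, smooth muscle alpha-actin, stood at 8.93 and 5.44 CPM in liver, against 2055 and 3491 CPM in stomach (log2 fold change -8.41 ± 0.83, adjusted p = 0.000832). Myh11, the smooth muscle myosin heavy chain, stood at 1.49 and 1.81 CPM in liver, against 463 and 699 CPM in stomach (log2 fold change -8.16 ± 0.81, adjusted p = 0.000832). Actg2, the enteric gamma-actin, stood at 0.992 and 0.907 CPM in liver, against 6459.7 and 764 CPM in stomach (log2 fold change -11.68 ± 1.51, adjusted p = 0.00114), and its female stomach value was far above its male one. The Actg2 tag holds 5 G or C in its 16 bases. Cald1, caldesmon, was not called, with 123 and 129 CPM in liver, against 348 and 148 CPM in stomach (log2 fold change -0.80 ± 0.66, adjusted p = 0.46, but log2 fold change 0.04 with adjusted p = 0.946 without the female stomach library and adjusted p = 0.03 without the male stomach library). Without the female liver library, and likewise without the male one, 12 of the 20 smooth muscle genes were called.

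Among matrix genes, 14 of 21 tested were called lower and 1 higher in liver (71.4% called, against 25.1% of all genes tested). Col1a1, a chain of type I collagen, stood at 13.4 and 6.95 CPM in liver, against 154 and 328 CPM in stomach (log2 fold change -4.39 ± 0.71, adjusted p = 0.00284, but 0.0586 without the female liver library and 0.09 without the male liver library), and Mgp, matrix Gla protein, at 3.47 and 2.42 CPM in liver, against 117 and 233 CPM in stomach (log2 fold change -5.68 ± 0.74, adjusted p = 0.00118). The exception was Fn1, fibronectin, which hepatocytes also release into plasma, with 792 and 462 CPM in liver, against 76.7 and 70.7 CPM in stomach (log2 fold change 3.24 ± 0.62, adjusted p = 0.00549, but 0.0939 without the female liver library and 0.0571 without the male liver library). Dcn, decorin, was not called, with 246 and 151 CPM in liver, against 129 and 221 CPM in stomach (log2 fold change 0.36 ± 0.58, adjusted p = 0.736). The number of matrix genes called higher was 0 without the female liver library and 0 without the male liver library. The number of matrix genes called lower was 5 without the female liver library and 7 without the male liver library.

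Of 20 tested transcription factors of gastric epithelium and mesenchyme, of 28 listed, 17 were called lower in liver. Barx1, a homeobox factor of stomach mesenchyme, stood at 0.496 and 0.302 CPM in liver, against 104 and 121 CPM in stomach (log2 fold change -7.82 ± 0.83, adjusted p = 0.000832). Klf4, a factor of epithelial differentiation, stood at 3.47 and 4.23 CPM in liver, against 166 and 153 CPM in stomach (log2 fold change -5.13 ± 0.70, adjusted p = 0.00134). Sox21 had 0 counts in both liver libraries, against 65 and 26.5 CPM in stomach (at least 38.2-fold lower, adjusted p = 0.0021). Gata4, used in both organs, stood at 10.9 and 7.56 CPM in liver, against 51.1 and 41.1 CPM in stomach (log2 fold change -2.16 ± 0.60, adjusted p = 0.0288, but 0.429 without the female liver library and 0.457 without the male liver library). The number of gastric factor genes called higher was 1 without the female stomach library. The number of gastric factor genes called lower was 11 without the female liver library and 10 without the male liver library.

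Of 6 tested simple keratins, 5 were called lower in liver. The number of simple keratin genes called lower was 3 without the male liver library. Krt8, which pairs with Krt18 in simple epithelia, was lower in liver, with 196 and 237 CPM in liver, against 2670.1 and 1816 CPM in stomach (log2 fold change -3.17 ± 0.67, adjusted p = 0.00861, but 0.249 without the female liver library and 0.108 without the male liver library). Krt18 was not called, with 158 and 164 CPM in liver, against 407 and 605 CPM in stomach (log2 fold change -1.43 ± 0.58, adjusted p = 0.117). Its log2 fold change was -1.63 without the female stomach library and -1.16 without the male stomach library. Both its stomach values were above both liver values, as in 3240 of the 9631 genes tested. Among 17 tested junction and adhesion genes, 3 were called higher, namely Cldn3, Cdh2 and Cldn14, and 4 lower, namely Cldn18, Cdh1, Gja1 and Epcam. The share called was 41.2%, against 25.1% of all genes tested. The number of junction genes called higher was 7 without the female stomach library and 7 without the male stomach library. The number of junction genes called lower was 2 without the female liver library, 2 without the male liver library and 7 without the male stomach library. Cldn18, the claudin of gastric epithelium, had 0 counts in both liver libraries, against 326 and 143 CPM in stomach (at least 196-fold lower, adjusted p = 0.000993), while Cldn3, another claudin, stood at 44.2 and 36 CPM in liver, against 0 and 0.52 CPM in stomach, a ratio of 165 (95% interval 29.3 to 6560.2) by counting error. Cdh1, E-cadherin, stood at 16.9 and 18.1 CPM in liver, against 166 and 375 CPM in stomach (log2 fold change -3.70 ± 0.69, adjusted p = 0.00498, but 0.176 without the female liver library and 0.105 without the male liver library), and Cdh2, N-cadherin, at 28.3 and 28.7 CPM in liver, against 0.433 and 0.52 CPM in stomach (log2 fold change 5.95 ± 0.82, adjusted p = 0.0014). E-cadherin was thus lower and N-cadherin higher in liver.

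**Figure D3:**
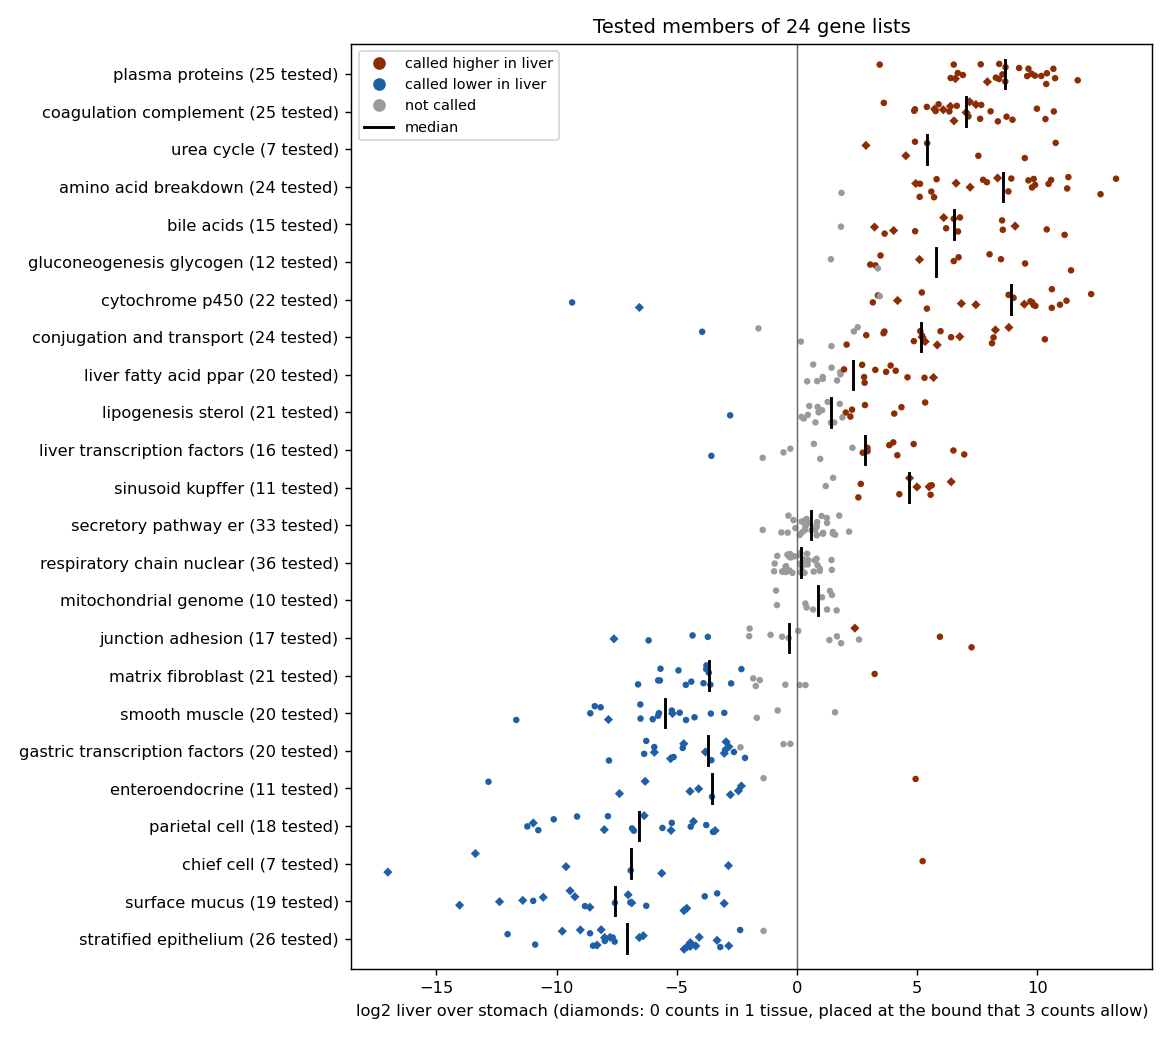
Log2 fold change of liver over stomach for the tested members of 24 gene lists, with called genes in brown (higher in liver) and blue (lower in liver), uncalled ones in grey and the list median as a black bar. Diamonds have 0 counts in both libraries of 1 tissue and stand at their bound. Among the lists drawn, of 38 in all, the medians run from 8.92 for the cytochromes P450 to -7.57 for surface mucus, with the major urinary proteins (9.75) and pancreatic genes (-8.23) not drawn. The secretory pathway, nuclear respiratory chain and mitochondrial lists hold no called gene.

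Several enzyme families were counted through different members in the 2 organs. Of 42 tested genes of such families, of 46 listed, 14 were called higher and 13 lower in liver, and the median was -0.05. Hk1, the widespread hexokinase, stood at 1.49 and 0.302 CPM in liver, against 30.3 and 69.7 CPM in stomach (log2 fold change -5.68 ± 0.89, adjusted p = 0.00244), and Hk2 at 1.49 and 0.605 CPM in liver, against 7.37 and 20.3 CPM in stomach (log2 fold change -3.53 ± 0.82, adjusted p = 0.0129, but 0.102 without the female liver library and 0.213 without the male liver library). The number of family genes called lower was 6 without the female liver library and 7 without the male liver library.

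Other enzymes of glycolysis were also divided. Aldoa, the aldolase abundant in muscle, stood at 72.9 and 62.6 CPM in liver, against 281 and 981 CPM in stomach (log2 fold change -2.99 ± 0.73, adjusted p = 0.0168, but 0.278 without the female liver library and 0.225 without the male liver library). Pklr, the liver and red cell pyruvate kinase, stood at 50.6 and 45.7 CPM in liver, against 16.9 and 10.4 CPM in stomach (log2 fold change 1.99 ± 0.62, adjusted p = 0.0474, but 0.269 without the female liver library and 0.41 without the male liver library), whereas Pkm stood at 9.92 and 10.3 CPM in liver, against 157 and 742 CPM in stomach (log2 fold change -5.21 ± 0.90, adjusted p = 0.00366). Ldhb, the lactate dehydrogenase chain of oxidative tissues, stood at 2.48 and 3.02 CPM in liver, against 921 and 112 CPM in stomach (log2 fold change -7.35 ± 1.24, adjusted p = 0.00331), and Ldha was not called, with 1152 and 719 CPM in liver, against 1457 and 356 CPM in stomach (log2 fold change 0.16 ± 0.77, adjusted p = 0.926, but adjusted p = 0.0107 without the female stomach library and log2 fold change -0.51 with adjusted p = 0.353 without the male stomach library). The stomach libraries differed for Ldhb, whose tag holds 3 G or C in its 16 bases.

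In glycogen breakdown, the liver phosphorylase Pygl stood at 319.6 and 159 CPM in liver, against 4.77 and 0.52 CPM in stomach (log2 fold change 6.53 ± 1.02, adjusted p = 0.00242), and the brain form Pygb at 3.47 and 1.81 CPM in liver, against 26.9 and 101 CPM in stomach (log2 fold change -4.40 ± 0.84, adjusted p = 0.00565, but 0.078 without the male liver library). For fructose bisphosphatase, Fbp1 stood at 739 and 668 CPM in liver, against 0 and 0.52 CPM in stomach, with 1 count in stomach, and Fbp2 at 0 and 0.302 CPM in liver, against 11.7 and 15.6 CPM in stomach, with 1 count in liver (adjusted p = 0.00338, but 0.0524 without the female liver library). Their ratios of pooled CPM were 2938 (95% interval 527 to 116081) for liver over stomach in Fbp1 and 71.7 (95% interval 12.4 to 2882) for stomach over liver in Fbp2. Gls2, the liver glutaminase, stood at 373 and 198 CPM in liver, against 2.17 and 0.52 CPM in stomach (log2 fold change 7.75 ± 0.92, adjusted p = 0.000922). Not all pairs divided this way. Mat1a, the methionine adenosyltransferase of adult liver, stood at 3161 and 1328 CPM in liver, against 0.867 and 1.04 CPM in stomach (log2 fold change 11.25 ± 0.98, adjusted p = 0.000832), but its widespread paralog Mat2a was not called, with 115 and 51.4 CPM in liver, against 265 and 43.2 CPM in stomach (log2 fold change -0.81 ± 0.87, adjusted p = 0.582, but log2 fold change 1.14 with adjusted p = 0.0411 without the female stomach library and adjusted p = 0.0155 without the male stomach library). Likewise Gys2, the liver glycogen synthase, stood at 273 and 118 CPM in liver, against 0 and 0.52 CPM in stomach (log2 fold change 9.50 ± 1.08, adjusted p = 0.000871), and Gys1 was not called, with 7.44 and 10.3 CPM in liver, against 10.4 and 30.2 CPM in stomach (log2 fold change -0.91 ± 0.70, adjusted p = 0.425, but 0.0151 without the female stomach library).

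Alcohol and aldehyde dehydrogenases showed a further split, with 11 of 17 tested called higher and 2 lower in liver. Adh1, the classical hepatic alcohol dehydrogenase, stood at 3635 and 1809 CPM in liver, against 94.5 and 68.1 CPM in stomach (log2 fold change 5.19 ± 0.74, adjusted p = 0.00165). Adh7, the retinol-active form of stomach, stood at 16.9 and 12.1 CPM in liver, against 136 and 131 CPM in stomach (log2 fold change -3.03 ± 0.60, adjusted p = 0.00664, but 0.246 without the female liver library and 0.255 without the male liver library). Aldh1a1, a retinaldehyde dehydrogenase, stood at 1216 and 1239 CPM in liver, against 94.9 and 104 CPM in stomach (log2 fold change 3.83 ± 0.64, adjusted p = 0.00323). Aldh3a1, known from cornea and stomach, had 0 counts in both liver libraries, against 107 and 186 CPM in stomach (at least 122-fold lower, adjusted p = 0.0009). The 2 genes lower in liver were Adh7 and Aldh3a1. The number of dehydrogenase genes called higher was 7 without the female liver library. The number of dehydrogenase genes called lower was 1 without the female liver library and 1 without the male liver library.

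**Figure D4:**
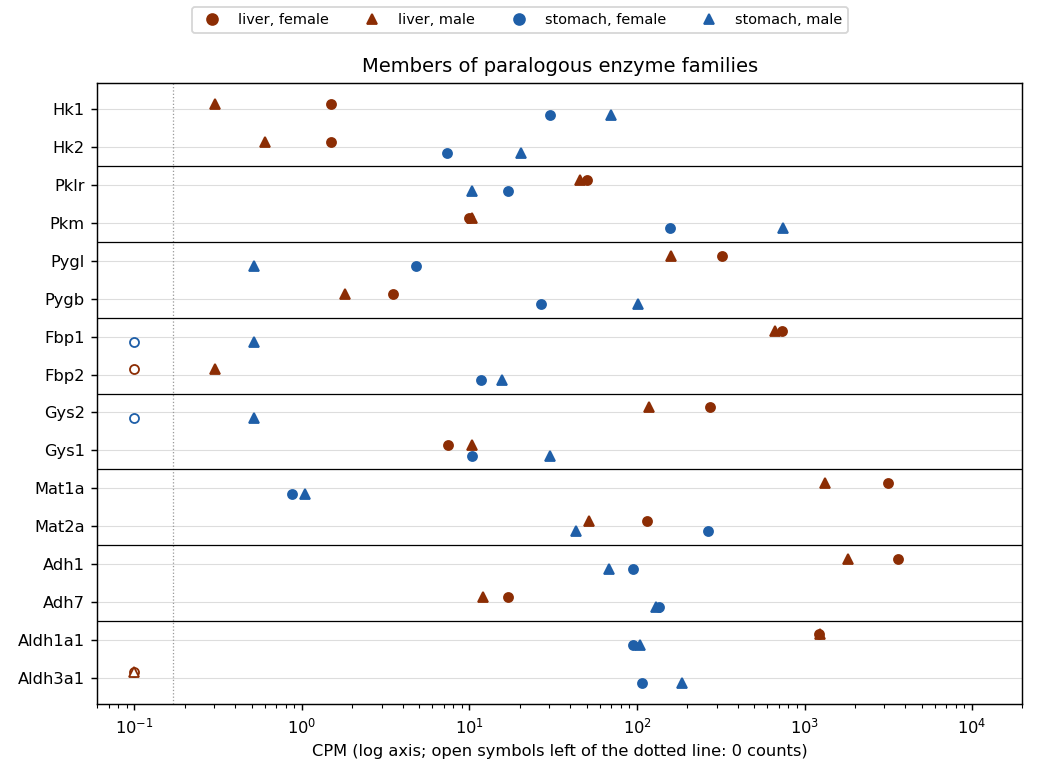
CPM on a log axis in each library for members of 8 enzyme families, separated by black lines, with liver in brown, stomach in blue, circles for female and triangles for male libraries, and open symbols at 0 counts. The liver values lie to the right of the stomach values in Pklr, Pygl, Fbp1, Gys2, Mat1a, Adh1 and Aldh1a1. They lie to the left in Hk1, Hk2, Pkm, Pygb, Fbp2, Adh7 and Aldh3a1 and, by a small margin, in Gys1, which was not called.

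Pancreatic secretory genes were counted in both stomach libraries. Of 25 listed, 21 had tags and 18 were tested, and all 18 were called lower in liver, with a median of -8.32, or -8.23 at the bounds. Clps, which encodes colipase, the cofactor of pancreatic lipase, stood at 0.496 and 0.302 CPM in liver, against 93379 and 74396 CPM in stomach, 2 counts in liver, for a ratio of pooled CPM, stomach over liver, of 225540.0 (95% interval 62436 to 1862370.0). Pla2g1b, a secreted phospholipase, stood at 0.992 and 0.302 CPM in liver, against 10214 and 29438 CPM in stomach, with a ratio of 33622 (95% interval 11504 to 163041). Amy2a, pancreatic amylase, stood at 10.4 and 4.54 CPM in liver, against 2136 and 998 CPM in stomach (log2 fold change -7.61 ± 0.90, adjusted p = 0.000911).

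Set against the pancreas libraries of the series, these genes fell into 2 kinds. Clps had 93379 and 74396 CPM in stomach, against 35112 and 32100.4 CPM in pancreas. Pla2g1b had 10214 and 29438 CPM in stomach, against 613 and 575 CPM in pancreas. Both were thus above their pancreatic CPM in the stomach libraries. CPM is a share of a library, so a dominant gene lowers the CPM of the others, and the part of this was not tested. Amy2a had 2136 and 998 CPM in stomach, against 343489 and 246815 CPM in pancreas. The 19 genes other than Clps and Pla2g1b summed to 6261 and 5547 CPM in stomach, against 830911 and 828102 CPM in pancreas, and to 43.2 and 15.1 CPM in liver. These values were not tested, and neither was the part of pancreatic RNA in the stomach libraries.

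**Figure D5:**
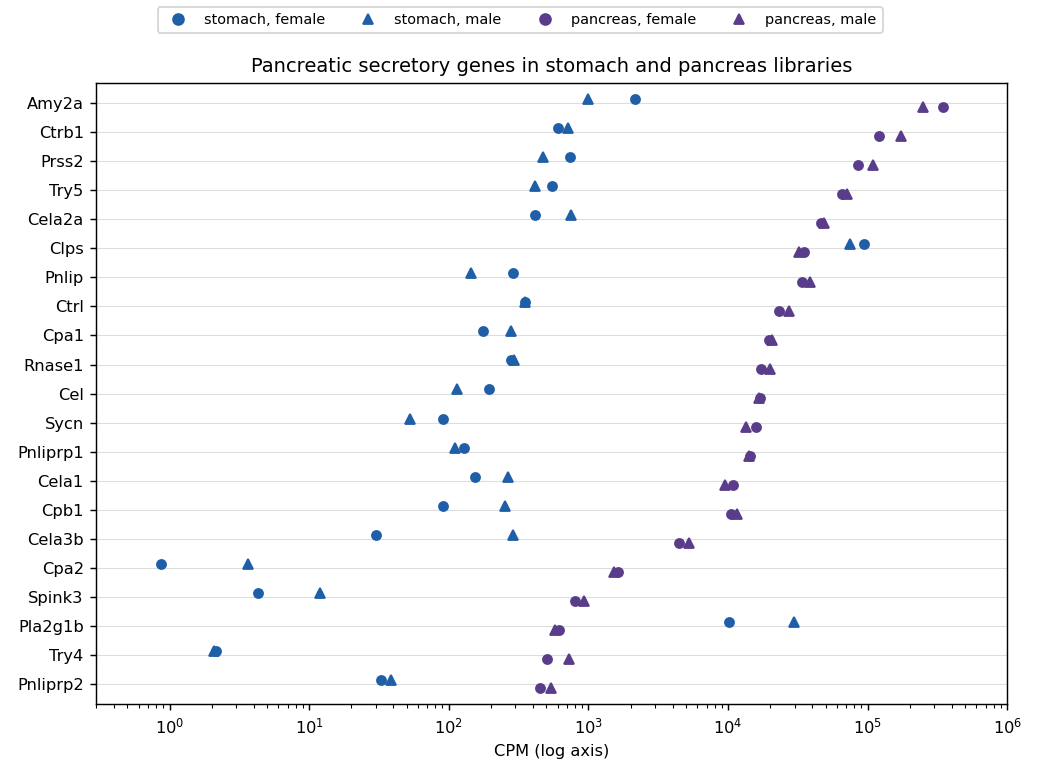
CPM on a log axis of 21 pancreatic secretory genes in the stomach libraries (blue) and the pancreas libraries (purple), with circles for female and triangles for male. Clps and Pla2g1b lie to the right of their pancreas values in stomach, and the other 19 genes lie to the left.

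Another leading stomach entry was a cluster with the title caspase 6, a protease of apoptosis. It stood at 20.3 and 11.5 CPM in liver, against 49302 and 68801 CPM in stomach (log2 fold change -11.69 ± 1.08, adjusted p = 0.000832). A single tag, printed above, held 113706 and 132105 of its counts in stomach, against 1 and 0 in liver. The other tags of the cluster held 53 and 165 counts in stomach and 40 and 38 in liver. The tag is attached to an expressed sequence and not to the reference transcript of the gene, so the value is given for that tag and not as a level of caspase 6, and which transcript holds the tag was not tested. Mm.702, a cluster titled ribosomal protein S16, stood at 725 and 448 CPM in liver, against 4483 and 1885 CPM in stomach (log2 fold change -2.31 ± 0.71, adjusted p = 0.0447, but 0.335 without the female liver library and 0.39 without the male liver library).

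Markers of other cells moved unevenly. Over all genes tested, 25.1% were called, 10.4% higher and 14.7% lower in liver. Skeletal muscle genes summed to 4.47 and 1.51 CPM in liver, against 53.3 and 355 CPM in stomach, and 2 of 2 tested, Tnni2 and Tnnc2, were called lower in liver. Tnni2, a fast troponin, had 0 counts in both liver libraries, against 31.6 and 79.6 CPM in stomach (at least 46.4-fold lower, adjusted p = 0.00159). Adipose markers were called lower in liver in 3 of 6 tested (Cfd, Lpl and Cidec) and higher in 1, which was Car3, a carbonic anhydrase that hepatocytes also make, with 1944 and 3072 CPM in liver, against 104 and 15.1 CPM in stomach (log2 fold change 5.59 ± 1.10, adjusted p = 0.00645). Of 3 tested erythroid genes 1, Alas2, was called higher. Haemoglobin genes were not called, and Hbb-b2 stood at 548 and 587 CPM in liver, against 183 and 234 CPM in stomach (log2 fold change 1.66 ± 0.58, adjusted p = 0.0725, but 0.0134 without the female stomach library and 0.0112 without the male stomach library). Immune markers were called in 1 of 11 tested (9.09%, below the share over all genes), which was the mast cell protease gene Mcpt2, lower in liver. Mcpt2 was not tested with code 1 tags only, with at least 10 counts per library, or without genes whose main tag ends in 12 A. Cd74, of the class II antigen pathway, stood at 169.7 and 138 CPM in liver, against 442 and 151 CPM in stomach (log2 fold change -0.80 ± 0.69, adjusted p = 0.481, but log2 fold change 0.28 with adjusted p = 0.65 without the female stomach library and adjusted p = 0.0184 without the male stomach library). Enteric neuron and glia markers had 3 tested genes, Vip, Stmn2 and Ret, all called lower in liver, and Vip had 0 counts in both liver libraries, against 55.9 and 10.4 CPM in stomach (at least 27.7-fold lower, adjusted p = 0.00578). Of 5 tested intestinal genes 1, Vil1, was called lower in liver (20% called, below the share over all genes). Skeletal muscle genes tested numbered 9, and not 2, without the female liver, the male liver or the female stomach library. Their median log2 fold changes were then -8.22, -8.14 and -9.10, in this order. The number of adipose genes called lower was 0 without the female liver library, 1 without the male liver library, 5 without the female stomach library and 6 without the male stomach library. The number of erythroid genes called higher was 0 without the male liver library, 3 without the female stomach library and 4 without the male stomach library. The number of immune marker genes called higher was 2 without the female stomach library and 1 without the male stomach library. The number of immune marker genes called lower was 2 without the male stomach library. The number of enteric neuron and glia genes called lower was 1 without the female liver library and 1 without the male liver library. The number of intestinal genes called higher was 2 without the female stomach library and 1 without the male stomach library. The number of intestinal genes called lower was 0 without the female liver library, 0 without the male liver library and 2 without the male stomach library. The part of these cells in the gene groups above was not tested.

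Of 13 tested proliferation genes, of 23 listed, 4 (30.8%) were called lower in liver, against 14.7% of all genes tested, with a median of -2.40. Mki67, which marks cycling cells, stood at 0.992 and 0.605 CPM in liver, against 13.9 and 18.7 CPM in stomach (log2 fold change -4.11 ± 0.73, adjusted p = 0.00422, but 0.0681 without the female liver library and 0.0939 without the male liver library), and Ccnb1, the mitotic cyclin, had 0 counts in both liver libraries, against 9.97 and 17.7 CPM in stomach (at least 11.5-fold lower, adjusted p = 0.00319). The other called genes were Birc5 and Hmgb2. The number of proliferation genes called higher was 2 without the female stomach library and 1 without the male stomach library. The number of proliferation genes called lower was 1 without the female liver library, 2 without the male liver library, 8 without the female stomach library and 11 without the male stomach library.

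No listed gene of the secretory pathway, the nuclear respiratory chain or the mitochondrial genome was called in the fit of the 4 libraries. By edgeR, 0 of 33 tested genes of the secretory pathway were called, with 4 higher and 1 lower at an unadjusted p under 0.05 and a median of 0.61. DESeq2 called 1 of them higher and limma voom 0, whereas the fit of all 14 libraries called 12 higher and 1 lower and the tag GC offset 4 higher. Hspa5, the main chaperone of the endoplasmic reticulum, stood at 259 and 222 CPM in liver, against 172 and 261 CPM in stomach (log2 fold change 0.35 ± 0.56, adjusted p = 0.736). None of 36 nuclear genes of the respiratory chain was called, with 2 higher and 0 lower at an unadjusted p under 0.05, 0 called by DESeq2 and 0 by limma voom, 5 higher in the fit of all 14 libraries and 2 with the tag GC offset, and a median of 0.16. Atp5b, of the ATP synthase, stood at 539 and 496 CPM in liver, against 755 and 581 CPM in stomach (log2 fold change -0.18 ± 0.58, adjusted p = 0.877, but log2 fold change 0.05 with adjusted p = 0.997 without the female liver library and log2 fold change 0.10 with adjusted p = 0.881 without the female stomach library).

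None of 10 mitochondrially encoded genes was called by edgeR, DESeq2 or limma voom, and 0 had an unadjusted p under 0.05, while the fit of all 14 libraries called 3 higher. mt-Co1, a catalytic subunit of cytochrome oxidase, stood at 38128 and 27785 CPM in liver, against 24028 and 6118 CPM in stomach (log2 fold change 1.26 ± 0.85, adjusted p = 0.358, but 0.000378 without the female stomach library), and mt-Co2 at 15420.5 and 12669 CPM in liver, against 46109.8 and 10098 CPM in stomach (log2 fold change -0.87 ± 0.86, adjusted p = 0.554, but log2 fold change 0.73 with adjusted p = 0.256 without the female stomach library and adjusted p = 0.0147 without the male stomach library). The female stomach library was above the male one for both. A p above the threshold does not show equal levels. The number of secretory pathway genes called higher was 13 without the female stomach library and 9 without the male stomach library. The number of secretory pathway genes called lower was 1 without the female stomach library and 2 without the male stomach library. Nuclear respiratory chain genes were called in both directions when either stomach library was left out, in fits that also called more genes in all. Their median log2 fold change was 0.09 without the female stomach library and 0.48 without the male one. Over all genes tested these medians were -0.04 and -0.006. The number of mitochondrially encoded genes called higher was 6 without the female stomach library and 2 without the male stomach library. The number of mitochondrially encoded genes called lower was 2 without the male stomach library.

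Within each tissue the spread had its own pattern. In liver, Cyp7b1, an oxysterol hydroxylase, stood at 38.7 CPM in the female and 429 CPM in the male library, against 6.07 and 1.56 CPM in stomach. Slco1a1, an organic anion carrier, stood at 17.9 CPM in the female and 146 CPM in the male liver library, against 0 counts in both stomach libraries. C6, of the terminal complement, stood at 20.3 CPM in the female and 292 CPM in the male liver library, against 0.433 and 1.56 CPM in stomach. All 3 were called higher in liver, with adjusted p = 0.0108 for Cyp7b1, adjusted p = 0.00552 for Slco1a1 and adjusted p = 0.0071 for C6. The gap also ran the other way in genes chosen, like these 3, after their values were seen. Cyp2b9, a P450 counted mainly in the female liver library, stood at 724 and 0.605 CPM in liver, against 0 counts in both stomach libraries, and did not pass the count filter. Its cluster also carries the symbol of Cyp2b13, so the copies cannot be told apart. Cyp2d22, another P450, was not called, with 52.1 and 1.51 CPM in liver, against 0.433 and 4.68 CPM in stomach (log2 fold change 3.45 ± 1.43, adjusted p = 0.123, but log2 fold change -0.18 with adjusted p = 0.993 without the female liver library, adjusted p = 0.0052 without the male liver library, adjusted p = 0.0282 without the female stomach library and adjusted p = 0.0368 without the male stomach library). With 1 library per sex the difference between them has no replicate.

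In stomach, several genes had wide gaps between libraries, and the part of tag composition in them was not tested. Csrp1, a smooth muscle LIM protein whose tag holds 3 G or C, stood at 26.8 and 16.6 CPM in liver, against 3845 and 377 CPM in stomach (log2 fold change -6.51 ± 1.23, adjusted p = 0.00535). Fabp5, the epidermal fatty acid binding protein with 5 G or C in its tag, stood at 53.1 and 48.7 CPM in liver, against 7335 and 1175 CPM in stomach (log2 fold change -6.25 ± 1.09, adjusted p = 0.00392). The female stomach library was the higher one for both. Pgc, with 10 G or C, was higher in the male stomach library, as given above. In all 5 of Pgc, Csrp1, Fabp5, Actg2 and Ldhb the lower stomach value was above both liver values, as in all 1415 genes called lower.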

How the data were processed

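Per the labels, total RNA was reverse transcribed, cut with DpnII, and the 20 bases at the 3′-most site were sequenced as signatures. The authors deposited raw counts per tag, with a class code and a gene assignment, and no normalization. How tags were assigned, on which builds, and what the codes mean is not given in the sources used here. Counts of tags with codes 1 to 4, taken as the sense strand of a transcript, were summed per UniGene cluster or mitochondrial gene. CPM is relative to these sums. Names came from the files' RefSeq accessions (11096 genes, 64.2% of counts) or titles, matched to RefSeq symbols, and 5749 genes (10.7%) kept a title or identifier.

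The quasi-likelihood test of edgeR 4.0.16 (R 4.3.3) was fitted to the 4 libraries with tissue as its term, TMM factors and the filterByExpr filter, leaving 2 residual degrees of freedom. The labels do not say whether libraries came from separate animals, so p-values measure the spread between these libraries only. The script was tested on simulated counts. Where both libraries of a tissue have no count of a gene, 3 counts per library are allowed for, 0.907 to 1.56 CPM. Intervals are exact 95% intervals of counting error only.

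The members and the 38 gene lists were chosen with earlier results of these data known. Named genes were the 12 called genes per direction with the highest mean CPM and no overlap between tissues, up to 6 called members per list with the smallest p, any member over 1000 CPM, and, for contrast, other members, and a few such genes are not reported here. Alternatives covered scaling, filters, DESeq2 1.42.0, limma voom, sex as a block, the 14 libraries, leaving out each library and the choice of tags. Also tried were a tag GC offset and leaving out genes whose main tag ends in 12 A, both chosen after seeing the data.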

Additional observations from a re-analysis of the deposited data

How the results depend on the processing

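Higher genes numbered 1002 and lower genes 1415. The numbers moved by more than 1.5 times in the fit of all 14 libraries (2035 higher, 2693 lower) and, for lower genes, with no count filter (2149). Leaving out each library in turn gave 634 to 2290 higher and 678 to 2496 lower genes. The low end came without a liver library, and the high end without a stomach library, which leaves the estimate of spread to the liver pair. With sex as a replicate block the fit called 1101 and 1454, DESeq2 called 1035 and 1470, and limma voom 1032 and 1331. With the tag GC offset, chosen after seeing the data, 1494 were higher and 1811 lower, including all 1002 and all 1415. The median over all genes was -0.36 with no filter, -0.30 with library totals and 0.01 by limma voom. Among named genes, 12 changed sign under at least 1 alternative, all uncalled in the fit reported. Leaving out each library in turn, the log2 fold change ran from -1.03 to 1.64 for Foxa2, from -1.58 to 1.14 for Mat2a, from -2.13 to 3.92 for Hamp2, from -0.38 to 0.10 for Atp5b, from -1.28 to 0.044 for Cald1, from -1.37 to 0.28 for Cd74, from -0.51 to 0.83 for Fasn, from -0.51 to 1.62 for Ldha, from -0.18 to 5.73 for Cyp2d22, from -0.54 to 1.80 for Sult1d1 and from -1.56 to 0.73 for mt-Co2. Foxa2 was at 0.16 by limma voom, 0.13 with the sex block and 0.17 with all 14 libraries, and the main tag only gave 0.068 for Gys1 and -0.16 for Sult1d1. Of the genes named in the report, Pklr lost its call with DESeq2 size factors (adjusted p = 0.0511), library totals (0.0732), the main tag only (0.122) and without genes whose main tag ends in 12 A (0.0555). Cebpa (0.0519), Gata4 (0.0569) and Scd1 (0.0616) lost theirs with the main tag only, and Scd1 (0.0578) with code 1 only. Hnf4a gained a call by DESeq2 (0.0258), limma voom (0.0459), the sex block (0.0157), library totals (0.0465), no filter (0.0095), all 14 libraries (0.00046) and the GC offset (0.00158). Cyp2d22 gained one with library totals (0.0101), no filter (0.000205), DESeq2 (0.0257), all 14 libraries (0.0168) and the GC offset (0.0382). Hamp2 gained one with library totals (0.0206) and no filter (0.00076). With all 14 libraries Got1, Nr0b2, Krt18, Hbb-b2, Fth1 and Pcx gained calls, the first 4 also with the GC offset, and Got1 (0.0453) and Nr0b2 (0.0459) with no filter. Fold changes moved by over 1.5 times for 44 named genes by limma voom, 14 with the main tag only, 11 by DESeq2, 9 with the sex block and 6 with code 1 only. The cause was not tested.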
